A study of Homo sapiens with 4 samples.

Results

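Caspases are proteases that cut other proteins after aspartate, and cells make them as inactive precursors that are switched on by assembly platforms. The PIDDosome is such a platform for caspase-2: PIDD1, a death domain protein whose gene is a known p53 target, binds the adaptor CRADD (also called RAIDD), which holds CASP2 through its caspase recruitment domain. The apoptosome is the platform of the mitochondrial pathway, in which APAF1 and cytochrome c assemble around CASP9, and CASP8 and CASP10 are the initiators recruited to death receptors. CASP6 is an executioner caspase that cuts lamins. In neuroblastoma CASP8 is known to be silenced in many tumors and cell lines. These 8 genes (PIDD1, CRADD, CASP2, CASP6, CASP8, CASP9, CASP10 and APAF1) were taken by name from the 57820 genes counted, and 6 of them had enough fragments to be tested, among 16468 genes tested in all.

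RNA was sequenced from SY5Y cells, a human neuroblastoma cell line with wild-type MYCN, harvested 12 h after treatment with SGSS05-NS or with its solvent DMSO, with 2 libraries per group. The study presents the compound as SGSS05-NS3, a covalent inhibitor of the H4K20 methyltransferase SETD8, and points to these libraries under that name, while the labels call it SGSS05-NS and give 3 μM. The methods give a lower dose for SY5Y cells than the labels do, while legends of the study give that of the labels, so the dose is not settled. The cells are 1 line at 1 time after treatment, and the methods call the replicates independent biological ones. The question was which caspase and activator genes changed when SY5Y cells received the inhibitor.

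The libraries held between 21463105 and 25350204 fragments on genes. The share of fragments that matched no annotated exon on the strand counted was 12.3% and 12.4% with DMSO and 15.3% and 16.1% with SGSS05-NS. It is a share of all fragments, unassigned ones included, and it also holds fragments on the strand opposite to an exon. Of 8 neuroblastoma marker genes, 7 were tested and 5 of them were lower with SGSS05-NS at an adjusted p-value under 0.001. Of all genes tested, 8.14% were lower by this rule. TH, the first enzyme of catecholamine synthesis, had at most 2 fragments in any library. Of 8 markers of other cell types 3 were tested and 0 passed (edgeR's test, with 2 at an unadjusted p-value under 0.05 and 1 past the threshold with the likelihood ratio test but 0 with DESeq2 or limma voom), and PTPRC, CD3E, CD68 and ALB, of blood and liver cells, had at most 4 fragments in any library. The part of these shifts in the results below was not tested.

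Levels are given as CPM, the counts of a gene relative to the TMM-scaled size of its library. The test between the groups was the quasi-likelihood test of edgeR, with p-values adjusted by Benjamini and Hochberg over all genes tested and a threshold of 0.001. Among the 6 members tested, 1 was higher with SGSS05-NS (PIDD1) and 1 was lower (CRADD). Of all genes tested, 6.37% were higher and 8.14% lower by the same rule. At an adjusted p-value under 0.05, the members lower were 2 (CRADD and APAF1) and the member higher was still PIDD1, beside 23.7% of all genes lower and 22.6% higher. The median log2 fold change was -0.09 over the 6 members and 0.01 over all genes tested. The gene of the PIDDosome's scaffold and the gene of its adaptor changed in opposite directions.

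The DNA before the starts of PIDD1, CRADD and APAF1 is shown, since these 3 members had the largest changes and since PIDD1 and APAF1 each start close to a gene on the other strand. The sequences are from GRCh37, the build of the counts, read 5′ to 3′ on the strand of the member gene and ending at the base before its start in GENCODE release 44. For PIDD1 (chr11:809754-809964, minus strand, 211 bases) and APAF1 (chr12:99038892-99039067, plus strand, 176 bases) the stretch fills the space between the member and its neighbor, RPLP2 or IKBIP. For CRADD (chr12:94070901-94071150, plus strand) it is the 250 bases before the start. Capitals mark the GC box GGGCGG, the CCAAT box and AAGATGG, a form of the YY1 element, on either strand. Other forms of the YY1 element were not searched or marked. They were picked from 11 motifs after the matches were seen.
PIDD1: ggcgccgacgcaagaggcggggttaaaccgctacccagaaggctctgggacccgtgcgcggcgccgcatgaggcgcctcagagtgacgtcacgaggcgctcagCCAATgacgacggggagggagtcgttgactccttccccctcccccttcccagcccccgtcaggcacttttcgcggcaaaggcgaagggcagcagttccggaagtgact
APAF1: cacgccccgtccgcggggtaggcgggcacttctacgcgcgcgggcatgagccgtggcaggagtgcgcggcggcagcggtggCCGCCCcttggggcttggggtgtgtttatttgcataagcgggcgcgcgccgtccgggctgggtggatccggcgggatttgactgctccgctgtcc
CRADD: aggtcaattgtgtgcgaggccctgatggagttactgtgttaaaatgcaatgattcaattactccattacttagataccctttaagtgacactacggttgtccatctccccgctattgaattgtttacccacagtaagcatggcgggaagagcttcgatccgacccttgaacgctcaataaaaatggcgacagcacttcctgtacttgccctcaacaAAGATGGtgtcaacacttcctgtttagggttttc

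The 3 stretches differed in base composition. G and C made up 66.8% of the PIDD1 stretch and 72.2% of the APAF1 stretch, where the medians over windows of the same length before all 16042 tested genes with a position were 62.1% and 63.1%. They made up 44.8% of the CRADD stretch, below the median of 61.2%. The PIDD1 stretch held 1 CCAAT box, found in 29.6% of windows of its length, and the APAF1 stretch held 1 GC box on the other strand, found in 48.7%. The CRADD stretch held 1 copy of AAGATGG, found in 4.1% of windows. All 11 motifs were searched on both strands in the 250 bases before each member. The p53 half-site was in none of the 8 windows, and 4.8% of the windows of all tested genes held it. CGGAAG, a form of the ETS site, was before PIDD1 alone among the members and in 20.2% of all windows. Other forms of the ETS site were not searched, so this does not set PIDD1 apart for ETS sites in general. The E box CACGTG (7.2% of all windows), the AP-1 site TGACTCA (2.4%), the TATA box TATAAA (8.1%), the heat shock element (0.3%) and the E2F sites TTTCGCGC (0.5%) and TTTGGCGC (0.7%) were in none of the 8. A missing match says only that these letters are not in the window.

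PIDD1 (ENSG00000177595.13, minus strand of chromosome 11, 799179 to 809753 in GRCh37), the scaffold of the PIDDosome, had 314 and 299 fragments with DMSO and 837 and 806 with SGSS05-NS. Its levels were 12.5 and 12.8 CPM with DMSO and 37.7 and 34.3 CPM with SGSS05-NS. Both treated libraries lay above both controls, an order that 37.8% of all genes tested showed. The level rose 2.84-fold, which is 1.51 on the log2 scale (standard error 0.12, adjusted p = 1.8e-06, edgeR's quasi-likelihood test). This placed PIDD1 at the 95.8th percentile of the log2 fold changes of all genes tested. In bulk RNA, a change in the share of cells that express a gene and a change in RNA per cell cannot be told apart.

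CRADD (ENSG00000169372.8, chromosome 12 from 94071151 to 94288616, plus strand), the adaptor between PIDD1 and caspase-2, had 325 and 278 fragments with DMSO and 113 and 117 with SGSS05-NS. Its level was 12.4 ± 0.745 CPM (SD, n = 2) in the controls and 5.03 ± 0.0827 CPM (SD, n = 2) in the treated cells. Both treated libraries lay below both controls, as was the case for 36.9% of all genes tested. The level with DMSO was 2.47-fold that with SGSS05-NS, or -1.30 as log2 fold change (SE 0.16, adjusted p = 4.5e-05, edgeR's test), at the 5.05th percentile.

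CASP2 (ENSG00000106144.15, chromosome 7 from 142985308 to 143004789, plus strand), the protease of the PIDDosome, was the most abundant member, with 64.4 and 77.2 CPM with DMSO and 83.7 and 84.9 CPM with SGSS05-NS. The treated libraries lay above the controls, but the controls differed from each other by more than replicate 2 of DMSO did from the treated libraries. The log2 fold change was 0.25 (95% interval 0.03 to 0.48, adjusted p = 0.065, edgeR's test) and did not pass the threshold. It ranged from 0.12 without DMSO replicate 1 to 0.37 without DMSO replicate 2.

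**Figure D1:**
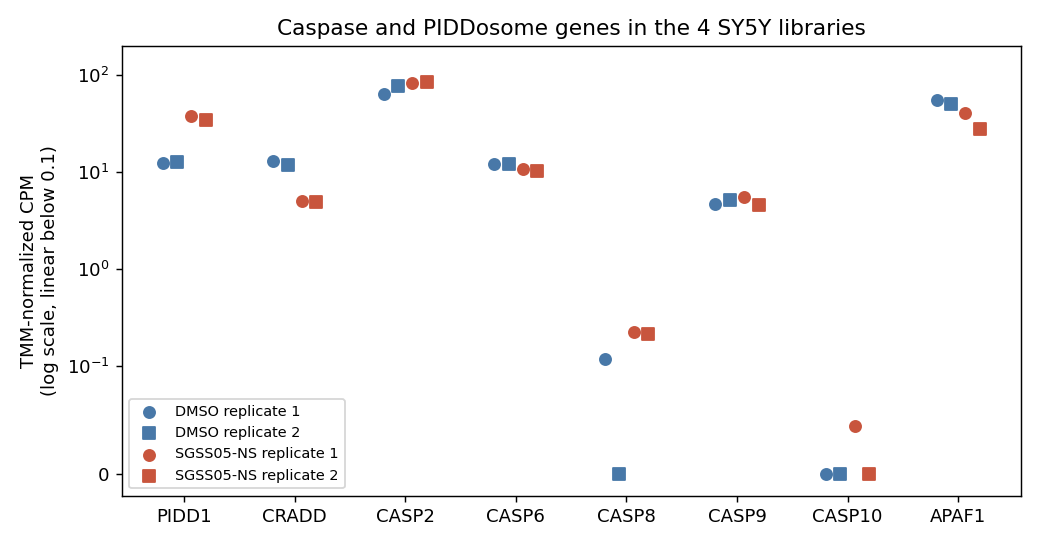
TMM-normalized CPM (vertical axis, logarithmic above 0.1 and linear below) of the 8 caspase and PIDDosome genes in the 2 DMSO (blue) and 2 SGSS05-NS (red) libraries, with circles for replicate 1 and squares for replicate 2. PIDD1 rises from 12.5 and 12.8 to 37.7 and 34.3 CPM, CRADD falls from a mean of 12.4 to 5.03 CPM, and CASP8 and CASP10 stay near 0.

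Since the 3 genes encode partners in 1 complex, their fragments were also compared within each library, where no scaling between libraries enters. PIDD1 and CRADD had nearly equal numbers of fragments with DMSO, with ratios of PIDD1 to CRADD of 0.966 and 1.08. With SGSS05-NS the ratios were 7.41 and 6.89. The ratio was 7.01-fold higher with the compound. That the 2 groups did not overlap follows from the orders of PIDD1 and CRADD given above and is no separate support. An exact permutation test of 2 libraries against 2 cannot go below a two-sided p of 0.333, which is the value it gave.

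Against CASP2, the 2 partners moved apart. The ratio of PIDD1 to CASP2 was 0.194 and 0.166 with DMSO and 0.450 and 0.404 with SGSS05-NS. The ratio of CRADD to CASP2 was 0.201 and 0.154 with DMSO and 0.0608 and 0.0586 with SGSS05-NS. PIDD1 transcripts thus gained on CASP2 by 2.38-fold and CRADD transcripts lost by 2.95-fold, measured as fragments and not as protein.

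**Figure D2:**
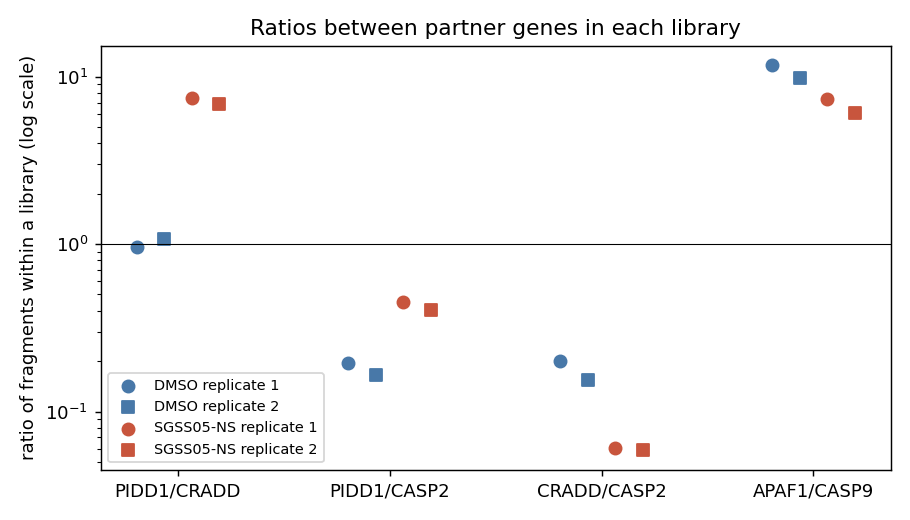
Ratio of the fragments of 2 partner genes within each library (vertical axis, logarithmic), for PIDD1 to CRADD, PIDD1 to CASP2, CRADD to CASP2 and APAF1 to CASP9, with DMSO libraries in blue and SGSS05-NS libraries in red. PIDD1 to CRADD moves from 0.966 and 1.08 to 7.41 and 6.89.

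APAF1 (ENSG00000120868.9, chromosome 12 from 99039068 to 99129211, plus strand), the scaffold of the apoptosome, lies 4.75 Mb from the end of CRADD on the same chromosome. Its levels were 55.5 and 50.5 CPM with DMSO and 40.9 and 28.1 CPM with SGSS05-NS. Both treated libraries lay below the controls, and they differed from each other by more than the controls did. The log2 fold change was -0.62 (SE 0.15, 95% interval -0.94 to -0.30, adjusted p = 0.0048, edgeR's quasi-likelihood test), so APAF1 missed the threshold of 0.001. It passed with the likelihood ratio test (log2 fold change -0.62, adjusted p = 0.00038, edgeR). The size of the value rested on the treated libraries, since it was -0.37 without SGSS05-NS replicate 2 and -0.92 without SGSS05-NS replicate 1.

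CASP9 (ENSG00000132906.13, chromosome 1 from 15817327 to 15853029, minus strand), the initiator caspase of the apoptosome, had 119 and 121 fragments with DMSO and 123 and 109 with SGSS05-NS. The levels of 4.74 and 5.18 CPM with DMSO and 5.54 and 4.63 CPM with SGSS05-NS overlapped. The log2 fold change was 0.04 with a 95% interval from -0.37 to 0.44 (adjusted p = 0.89, edgeR's test), so a change of up to about the size of that interval was not detectable at this depth. The ratio of APAF1 to CASP9 fragments was 11.7 and 9.75 with DMSO and 7.38 and 6.06 with SGSS05-NS.

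CASP6 (ENSG00000138794.5, chromosome 4 from 110609778 to 110624739, minus strand), the executioner caspase of the list, had 12.2 CPM in both DMSO libraries and 10.7 and 10.3 CPM in the SGSS05-NS libraries. The groups did not overlap, but the log2 fold change of -0.22 (95% interval -0.51 to 0.08, adjusted p = 0.21, edgeR's test) did not pass the threshold. The 3' end of CASP6 overlaps the gene MCUB on the other strand, and the counts used here keep the strands apart.

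CASP8 and CASP10, the initiator caspases of the death receptors, were almost absent. CASP8 (ENSG00000064012.17, chromosome 2 from 202098166 to 202226559) had 3 and 0 fragments with DMSO and 5 and 5 with SGSS05-NS. Scaled for depth, the treated counts were 3.53 times those of the controls, and the exact binomial 95% interval of this ratio, 0.910 to 19.98, includes no change. The other strand of CASP8 held more fragments than its own, 20 against 13 over the 4 libraries, with 2 and 6 with DMSO and 5 and 7 with SGSS05-NS, and the gene FLACC1 lies there on that strand. CASP10 (ENSG00000003400.10, chromosome 2 from 202047595 to 202094151) had 1 fragment in SGSS05-NS replicate 1 and 0 in the other libraries. A count of 0 allows up to 3 fragments, which is between 0.120 and 0.135 CPM in these libraries. CASP10 ends 4014 bases before CASP8 starts, and CFLAR, the gene of the caspase-8 inhibitor FLIP, ends 6184 bases before CASP10 on the same strand. CFLAR itself was expressed, at 16.4 ± 0.241 CPM in the controls and 23.3 ± 0.306 CPM in the treated cells (SD, n = 2 each, log2 fold change 0.51, adjusted p = 0.0036, edgeR's test), and did not pass the threshold, though it did with the likelihood ratio test.

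Levels of different genes were compared as CPM per kb of merged exons. With DMSO the order was CASP2 (8.83 ± 1.12 CPM per kb, SD, n = 2), APAF1 (6.83 ± 0.453), CASP6 (6.29 ± 0.0167), CRADD (2.91 ± 0.174), PIDD1 (2.16 ± 0.0342) and CASP9 (0.942 ± 0.0586). APAF1 and CASP6, neighbors in this order, differed by little more than the SD of APAF1. With SGSS05-NS the order on the same scale was CASP2 (10.5 ± 0.105), PIDD1 (6.15 ± 0.416), CASP6 (5.41 ± 0.126), APAF1 (4.45 ± 1.17), CRADD (1.18 ± 0.0194) and CASP9 (0.966 ± 0.122). CASP6 and APAF1 did not differ beyond their spread. PIDD1 thus went from the fifth to the second place among the 6 genes. The exon lengths are those of release 44, which hold rare isoforms too.

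Positions set PIDD1 and APAF1 side by side with genes that share their upstream DNA. PIDD1 and RPLP2, a ribosomal protein gene, start 211 bases apart on opposite strands, the first sequence printed above. RPLP2 had a log2 fold change of 0.05 (SE 0.09, adjusted p = 0.69, edgeR's test), against 1.51 for PIDD1. APAF1 and IKBIP, which encodes a protein that binds an IκB kinase, start 176 bases apart. IKBIP had 551 and 514 fragments with DMSO and 1014 and 928 with SGSS05-NS. It rose by 0.95 on the log2 scale (SE 0.11, adjusted p = 4.2e-05, edgeR's test), while APAF1 had -0.62. The 2 genes on either side of this stretch therefore had values of opposite sign.

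Of the other members, CASP9 starts 278 bases from DNAJC16, a co-chaperone gene with a log2 fold change of 0.12 (adjusted p = 0.37, edgeR's test). CASP2 starts 217 bases from the non-coding gene TMEM139-AS1, which had between 9 and 27 fragments and a log2 fold change of 1.27 (adjusted p = 0.015, edgeR's test). In all, 4 of the 6 tested members had a tested gene that starts within 1000 bases on the other strand and runs away from it, as had 12.7% of all tested genes with a position. The neighbors were named after their values were seen.

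**Figure D3:**
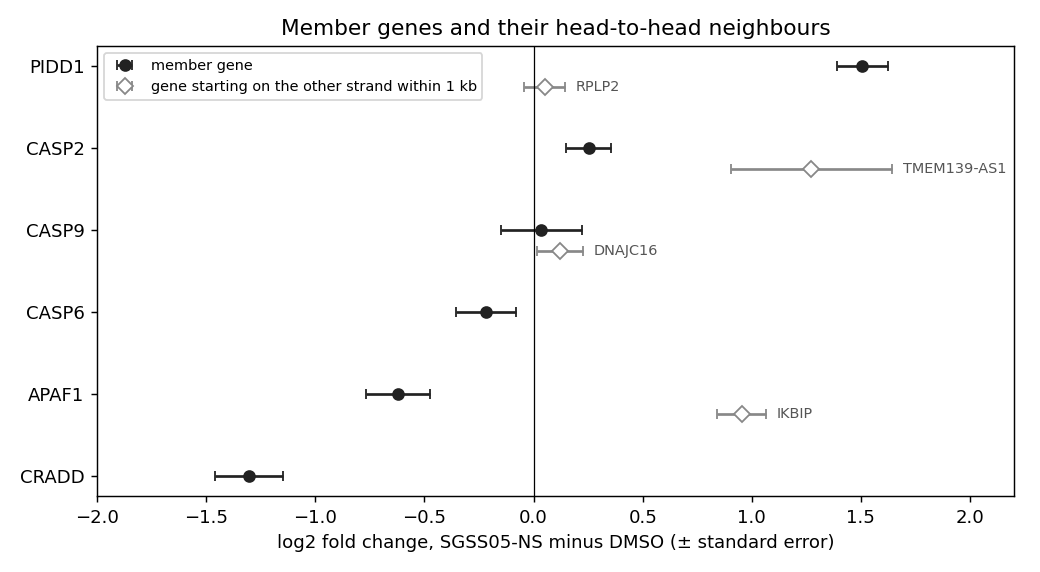
Log2 fold change of SGSS05-NS minus DMSO with its standard error (horizontal axis) for the 6 tested member genes (black circles) and, below each, the gene that starts within 1 kb on the other strand (open diamonds). PIDD1 stands at 1.51 with RPLP2 at 0.05, and APAF1 at -0.62 with IKBIP at 0.95.

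The genomic span of a gene went along with its change in these libraries, so the spans of the members are given beside their values. Among the 1141 tested genes that span over 200 kb the median log2 fold change was -0.78 and 11.0% were above 0. CRADD, with 217 kb, is in this class. Among the 3910 genes of 10 to 30 kb the median was 0.17 and 65.7% were above 0, and PIDD1 (10.6 kb), CASP6 (15.0 kb) and CASP2 (19.5 kb) are in that class. Among the 4523 genes of 30 to 100 kb, which include CASP9 (35.7 kb) and APAF1 (90.1 kb), the median was 0.02. The part of span in the changes of CRADD and APAF1 was not tested. Across 16042 genes Spearman's rho of span and log2 fold change was -0.22, given as a description over genes that share the same 4 libraries.

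**Figure D4:**
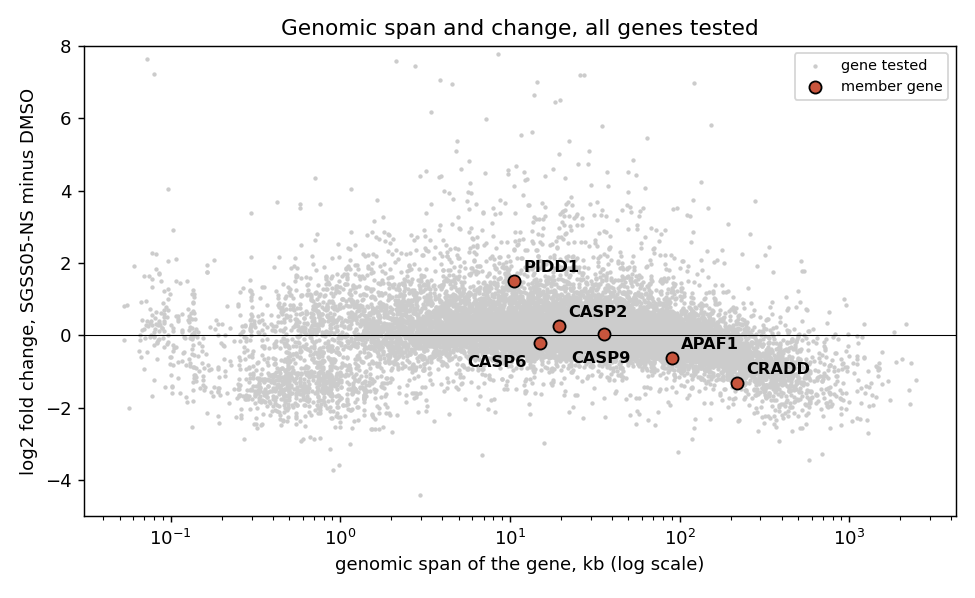
Genomic span in kb (horizontal axis, logarithmic) against the log2 fold change of SGSS05-NS minus DMSO (vertical axis) for each tested gene (gray points) and the 6 tested members (red circles). CRADD lies at 217 kb and -1.30, among long genes that are mostly below 0, and PIDD1 at 10.6 kb and 1.51. Of all genes, 4 lie outside the plotted range.

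Further caspases, and the partners, regulators and substrates of the members, were taken from 7 lists of 64 genes, of which 45 were tested. Past the threshold, 8 of these were higher and 6 lower, and the median log2 fold change was 0.10. Over all genes tested, 6.37% were higher and 8.14% lower by the same rule, with a median of 0.01. These shares are the background for the counts of each list below. The inflammatory caspase genes CASP1, CASP4, CASP5 and CASP12 and the skin caspase CASP14 had at most 1 fragment in any library.

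Among partners and substrates of the PIDDosome, 7 of 8 genes were tested, with 1 higher and 1 lower. MDM2, the ubiquitin ligase of p53 and a substrate of caspase-2, rose from 182 ± 10.5 to 435 ± 61.8 CPM (SD, n = 2 each), or by 1.26 on the log2 scale (SE 0.11, adjusted p = 5.4e-06, edgeR's test). BUB1B, the spindle checkpoint kinase BubR1, which binds PIDD1, fell by 0.95 on the log2 scale (adjusted p = 8.4e-05, edgeR's test). ANKRD26, which anchors PIDD1 at centrioles, had a log2 fold change of -0.19 (95% interval -0.42 to 0.04, adjusted p = 0.17, edgeR's test). BID, the BCL2 family protein that caspase-2 and caspase-8 cut, had one of 0.05 (95% interval -0.15 to 0.26, adjusted p = 0.68, edgeR's test).

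Among apoptosome partners, 1 of 6 tested genes was higher and 0 were lower, with edgeR's main test, its likelihood ratio test, DESeq2 and limma voom alike. That gene was HSPA8, a constitutive HSP70 chaperone, with a log2 fold change of 0.74 (adjusted p = 0.00017, edgeR's test). At an unadjusted p-value under 0.05 (edgeR's test), 3 of the 6 were higher and 0 lower. All 6 had log2 fold changes above 0, with a median of 0.39. CYCS, which encodes cytochrome c, had a log2 fold change of 0.19 (95% interval -0.02 to 0.40, adjusted p = 0.12, edgeR's test). Of the 5 tested inhibitor of apoptosis genes 0 passed edgeR's test in either direction, 2 were lower at an unadjusted p-value under 0.05, and 1 was lower past the threshold with the likelihood ratio test and with DESeq2 and 0 with limma voom. All 5 had log2 fold changes below 0, with a median of -0.39, where 8064 of all 16468 genes tested were below 0 and 8404 above. XIAP, which binds CASP9 and other caspases, had one of -0.12 (95% interval -0.34 to 0.10, adjusted p = 0.34, edgeR's test). BIRC6 and BIRC5 had log2 fold changes of -0.45 (adjusted p = 0.0018, edgeR's test) and -0.39 (adjusted p = 0.0065, edgeR's test). BIRC2 had one of -0.04 (95% interval -0.24 to 0.16). NAIP, with 8 to 24 fragments per library, had one of -0.73 (95% interval -1.61 to 0.14). The intervals of XIAP, BIRC2 and NAIP include 0, so their signs are not settled.

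In the complex that recruits CASP8 and CASP10, 12 of 14 genes were tested, with 5 higher and 1 lower. The receptor genes FAS (log2 fold change 4.74), TNFRSF10A (3.32), TNFRSF10B (1.62) and TNFRSF1A (1.14) rose, as did DEDD2 (1.76), a nuclear protein with a death effector domain, with adjusted p-values of 0.00015 or less from edgeR's test. TNFRSF10A had only 3 and 10 fragments with DMSO, and 71 and 54 with SGSS05-NS. The baseline of FAS was low too, with 16 and 10 fragments with DMSO against 344 and 316 with SGSS05-NS. The adaptor FADD, which links the receptors to CASP8, was at 20.5 ± 0.661 CPM in the controls and 22.2 ± 3.17 CPM in the treated cells (SD, n = 2 each). Its log2 fold change was 0.12 (95% interval -0.16 to 0.39, adjusted p = 0.49, edgeR's test). FAF1, a FAS-binding factor of 523 kb, was lower, with a log2 fold change of -0.81 (adjusted p = 0.00023, edgeR's test). TNFRSF25, the remaining receptor tested, had a log2 fold change of 0.47 (adjusted p = 0.071, edgeR's test) and did not pass. CASP8 and CASP10 had at most 5 fragments in any library.

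Of 11 inflammasome and CARD genes 3 were tested, with 0 past the threshold by edgeR's test and log2 fold changes between 0.28 and 0.50. At an unadjusted p-value under 0.05, 2 of them (NLRP1 and CARD8) were higher, and 1 (CARD8) passed the threshold with the likelihood ratio test but 0 with DESeq2 or limma voom. Of 12 caspase substrates, all of them tested, 1 was higher and 4 were lower. LMNA, the A-type lamin that CASP6 cuts, rose by a log2 fold change of 1.67 (adjusted p = 4.1e-06, edgeR's test), while LMNB1, a B-type lamin, had -0.91 (adjusted p = 1.4e-05, edgeR's test). HDAC4, a histone deacetylase cut by caspases, had a log2 fold change of -1.68 (adjusted p = 2.4e-06, edgeR's test) and spans 353 kb. XRCC4, a DNA end joining factor of 276 kb, had one of -1.48 (adjusted p = 2.1e-05, edgeR's test). PARP1, whose cleavage is a common readout of caspase activity, had one of -0.51 (adjusted p = 0.00089, edgeR's test), and it did not pass when either DMSO library was left out, with scaling by library size only, with at least 10 counts in every library or with the replicate block.

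**Figure D5:**
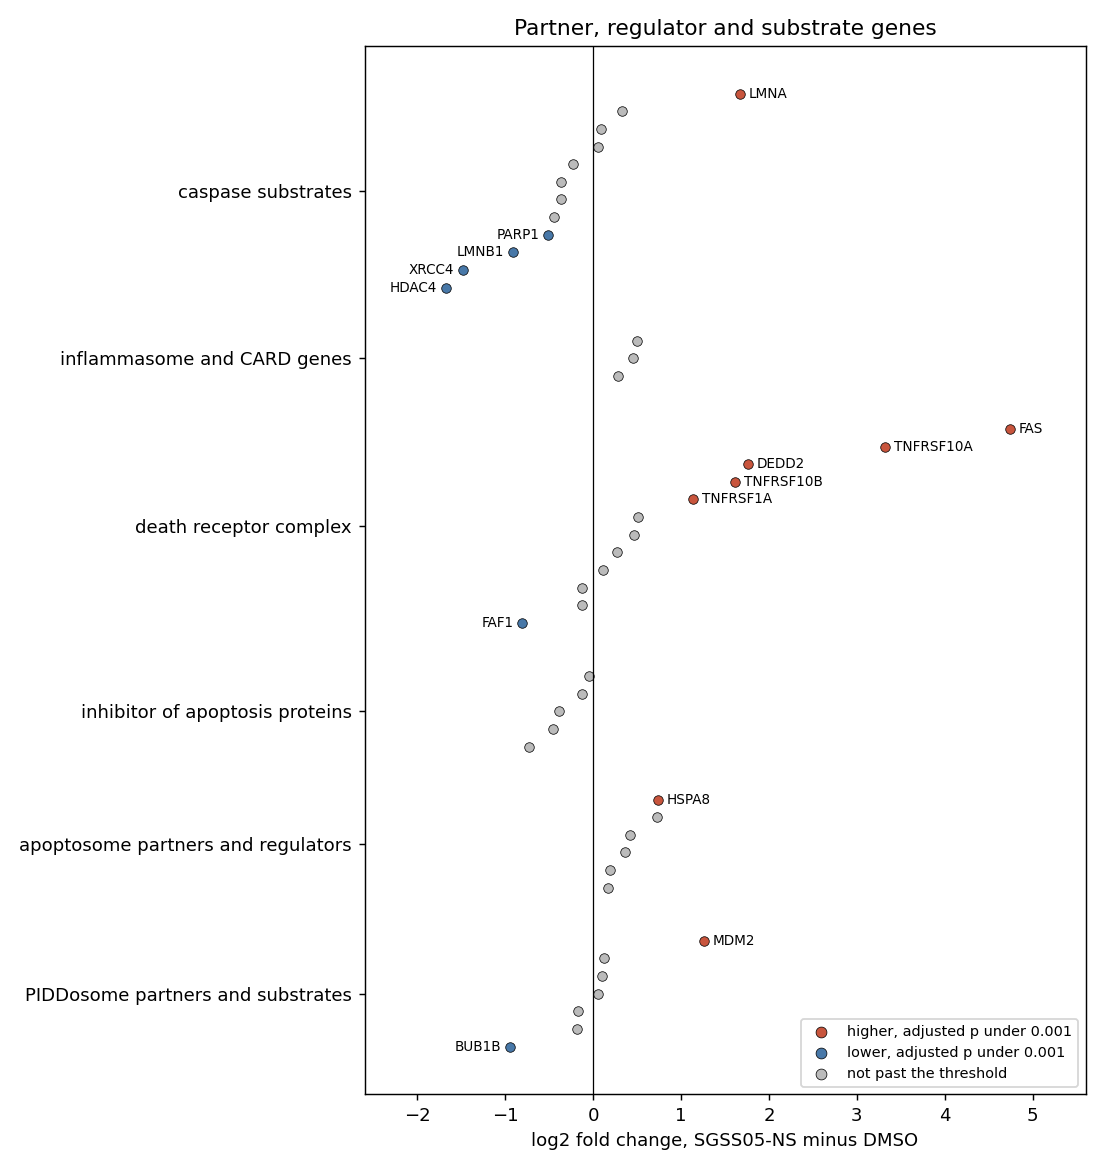
Log2 fold change of SGSS05-NS minus DMSO (horizontal axis) for each tested gene of the 6 lists with tested genes (rows), with genes past the adjusted p-value of 0.001 named and in red (higher) or blue (lower) and the others in gray. FAS lies farthest to the right at 4.74 and HDAC4 farthest to the left at -1.68, and all 5 tested inhibitor of apoptosis genes lie left of 0 without passing the threshold.

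The genes with the profile most like that of PIDD1 over the 4 libraries, by the Euclidean distance of log2(CPM + 0.1) centered on the mean of each gene, were GTF2IP23 (distance 0.067), CCDC144NL (0.10), ENSG00000269938 (0.10), UCN (0.12) and PRR7-AS1 (0.12). Their log2 fold changes lay between 1.64 and 1.90, and none had an adjusted p-value under 0.001. GTF2IP23 is a pseudogene with near-identical copies, so its count is uncertain. The genes closest to CRADD were ENSG00000235008 (distance 0.030), the linker histone gene H1-4 (0.049) and KANK4 (0.051), with log2 fold changes from -1.69 to -1.28. H1-4 passed the threshold (adjusted p = 1.3e-06, edgeR's test), while ENSG00000235008 (adjusted p = 0.011) and KANK4 (adjusted p = 0.0086) did not.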

How the data were processed

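RNA of 2 DMSO and 2 SGSS05-NS libraries of SY5Y cells was analysed. Per the labels and methods, Trimmomatic 0.30 trimmed the reads and STAR 2.4.2a mapped them to hg19 with GENCODE 19. The authors deposited raw counts per gene, not normalized, in 3 columns by strand. The reverse-strand column (column 4) was used, since the forward column held 4.64% to 5.05% of stranded gene fragments. Fragments that map to several places are left out of such counts, which lowers near-identical genes. The 4 summary rows, among them fragments with no exon on the strand counted (12.3% to 16.1%) and ambiguous ones (2.32% to 2.58%), were left out. Symbols, positions and exon lengths came from GENCODE 44 on GRCh37, and 2282 identifiers had no entry. IKBKG, CARD17 and PECAM1 were not matched by symbol and are not analysed here.

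Tests used edgeR 4.0.16 in R 4.3.3 (filterByExpr, TMM, quasi-likelihood test, no covariate, Benjamini-Hochberg adjustment). Standard errors are the log2 fold change divided by the square root of F. Intervals cover counting error only where exact binomial (95%). On data simulated for this comparison over 16088 genes, the test recovered 55% of genes changed 2-fold and 87% of those changed 4-fold, with 1 unchanged gene called. The simulation changed 200 genes and drew counts with the spread fitted to these libraries. It therefore does not give the rate of false calls in the real comparison. Replicates were not the same library, with chi-square values per degree of freedom of 8.76 and 11.8. The methods call them independent biological replicates, while the labels name no separate cultures, and p-values measure the spread between these libraries.

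AAGATGG and the other printed motifs were picked from 11 after the matches were seen. Named genes were the 8 members, every list gene past the threshold, further genes by role and the nearest profiles; other genes were named after their values were seen. The results of 2 genes chosen by this rule are not reported here, and they were left out of the lists. Members and lists were chosen with earlier results of these data known. Alternatives were the likelihood ratio test, DESeq2 1.42.0, limma voom 3.58.1, other scalings, filters and thresholds, a replicate block, counts without strand, and each library left out.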

Additional observations from a re-analysis of the deposited data

Results flagged for a closer look

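Fragments on the strand opposite to a gene are outside the main measurement, and for PIDD1 and CRADD they were higher in both SGSS05-NS libraries than in both DMSO libraries. The same order was found in 51.2% of the 8049 tested genes with at least 10 such fragments, and the reverse order in 12.6%. The share of gene fragments on the opposite strand was 4.67% and 4.64% with DMSO and 5.05% and 5.04% with SGSS05-NS. For PIDD1 they were 0.638 and 0.856 CPM with DMSO and 1.22 and 1.45 CPM with SGSS05-NS, from 16, 20, 27 and 34 fragments. For CRADD they were 0.0399 and 0.0428 CPM with DMSO and 0.135 and 0.255 CPM with SGSS05-NS, from 1, 1, 3 and 6 fragments, while its own strand fell. For CASP6 they went the other way, with 11 and 11 fragments with DMSO and 7 and 4 with SGSS05-NS.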

How the results depend on the processing

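PIDD1 and CRADD kept their direction and their side of the threshold under all 13 other fits, with log2 fold changes from 1.43 to 1.58 and from -1.38 to -1.25. CASP2 and CASP6 kept their sign and did not pass in any of them. CASP9 turned to -0.04 without DMSO replicate 1 and to -0.10 without SGSS05-NS replicate 1, and ranged from -0.10 to 0.16 with single libraries left out. The number of members lower was 2, with APAF1 as the second, under the likelihood ratio test, without a filter, with the replicate block and at an adjusted p-value under 0.05, and between 1 and 2 with single libraries left out, where the lone library is assumed to vary like the other group. For APAF1 the adjusted p-value ranged from 3.7e-07 to 0.017 over the 13 fits. At an adjusted p-value under 0.05, 14 pathway genes were higher and 10 lower. The numbers of all genes higher and lower were 2022 and 2267 with the likelihood ratio test, 2034 and 2570 without a filter, 3728 and 3903 at an adjusted p-value under 0.05, and 1759 higher with the replicate block. The replicate numbers are not stated to mark a shared batch, and the differences between replicates correlated by only 0.05 across genes between the groups, so the block is given here only. Its log2 fold changes were 1.51 for PIDD1, -1.30 for CRADD and -0.64 for APAF1. Depth limits CASP8 and CASP10, and for CASP9 changes within its interval are not excluded.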
